A study of Schizosaccharomyces pombe with 6 samples.

Results

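Protein kinases attach phosphate to serine, threonine or tyrosine residues of other proteins, and many act in cascades in which one kinase switches on the next. Their activity is also set by partner proteins, among them regulatory subunits, activators and inhibitors. Rad24 is a 14-3-3 protein of the fission yeast Schizosaccharomyces pombe, and 14-3-3 proteins bind many partners at sites that a kinase has phosphorylated. The genes described here are 63 protein coding genes of S. pombe, out of 6986 genes counted, 5126 of them protein coding. They were chosen by the words "protein kinase" in the deposited product description. Some genes were left out by a fixed list of names and name prefixes. These names come from mating, meiosis, sporulation, stress, cAMP, TOR, mitotic entry, checkpoint, transcription, septation and autophagy pathways. The list removed 24 genes with the same words. Other genes of these pathways remain among the 63, such as the meiotic kinase gene pit1. By their descriptions 55 of the 63 are kinases. The other 8 are the subunits Amk2, Cbs2 and Suc1, the activators Mob2 and Skb5, the inhibitors Nif1 and Skb15, and the endosulfine Igo1. Kinases described in other words, such as the MAP kinase Pmk1, are not among the 63.

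Poly(A)+ RNA was sequenced in 3 libraries of an h+ rad24∆::NatMX strain (AGP141), in which a drug marker replaces rad24, and in 3 libraries of an h+ strain with the wild type gene (AGP73). Each genotype is 1 strain, and both strains were in vegetative growth, taken in log phase from YES, a rich medium, at 30 °C. Library totals were 19396868 to 21730112 counts in the rad24 deletion and 11539278 to 15282140 counts in wild type. The labels do not name separate cultures, so the p-values cover the spread between libraries alone, which may be technical.

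The libraries had the rad24 genotype of their labels: rad24 itself held 15 to 39 counts in the rad24 deletion libraries and 18442 to 22565 counts in the wild type libraries. Any pair of libraries of 1 genotype had a Pearson r of 0.996 to 0.998 on the log scale, and pairs across genotypes had 0.938 to 0.945. Genes of the P mating type, to which h+ cells belong, had summed levels of 1521 to 1679 CPM (read counts relative to the library total, which was scaled by a TMM factor) in the rad24 deletion and 1468 to 1545 CPM in wild type, with 3 of 4 called higher and 1 called lower. The sums hold large changes in opposite directions. The gene map2 had 450.3 ± 50.4 CPM in the rad24 deletion and 5.14 ± 0.0173 CPM in wild type (log2 fold change 6.45). For map3 the levels were 243 ± 21.0 CPM in the rad24 deletion and 35.6 ± 3.87 CPM in wild type (2.76), and map1 was also higher (1.07). The abundant sxa1 was lower at 836 CPM in the rad24 deletion and 1424 CPM in wild type on average (-0.77). Genes of the M mating type summed to 98.1 to 101 CPM in the rad24 deletion and 116 to 129 CPM in wild type, with 4 of 6 called higher and 2 called lower. Among these, mam2 was lower at 4.31 ± 0.307 CPM in the rad24 deletion and 35.5 ± 3.06 CPM in wild type (log2 fold change -3.04), and mfm2 was higher at 12.2 ± 1.17 CPM in the rad24 deletion and 2.28 ± 0.185 CPM in wild type (2.42). In wild type mam2 was thus at the level of map3, a gene of the P mating type. These levels do not by themselves show the mating type of the labels. Over all tested protein coding genes, 41.9% were called higher and 39.5% lower. The part of the differences in mating genes in the results below was not tested.

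Most of the 63 genes differed between the genotypes, and nearly all by a small amount. In RNA from whole cultures, fewer cells of a kind and less RNA per cell cannot be told apart. In the edgeR quasi-likelihood test with Benjamini-Hochberg adjustment over all 6084 tested genes, 27 of the 63 were higher and 28 were lower in the rad24 deletion at an adjusted p below 0.05, and 8 were not called. All 63 had enough counts to be tested, with 47 to 11323 counts in a library. Together these calls are 87.3% of the 63 genes, beside 81.3% of all tested protein coding genes (41.9% higher and 39.5% lower), so calls were common everywhere. In 56 of the 63 genes the groups did not overlap, as in 82.9% of protein coding genes. At least 2-fold changes were found in 3 genes that rose (ppk31, ppk33 and oca2) and 1 that fell (cmk1), beside 9.39% of protein coding genes past that bound (5.24% higher and 4.15% lower). In the authors' deposited table, 46 of the 63 genes had an adjusted p below 0.05, beside 66.8% of protein coding genes there. The median log2 fold change was -0.01 over the 63 genes and 0.01 over tested protein coding genes, and 48 of the 63 lay within 0.5 of 0. The median absolute log2 fold change was 0.27 over the 63 and 0.31 over protein coding genes. Leaving out 1 library ended the call of up to 5 genes at a time, all with small changes: skb15, pom2, nnk1, ppk38, pit1 and cki3. The direction of the calls depended on the scaling. With RLE factors 26 of the 63 were called higher and 30 lower, close to TMM factors. With upper quartile factors the numbers were 31 and 20, and with library size only 33 and 17. Calls of nnk1, ppk38, cki3, pit1, ppk32, suc1, gsk31 and rio1 were lost with upper quartile factors and again with library size only. Those of sck2, ppk21 and ppk15 were lost with library size only. The median of all tested genes was 0.02 with TMM factors, 0.0006 with RLE factors, 0.12 with upper quartile factors and 0.19 with library size only. Together the 63 genes took 0.923% to 0.938% of all counts in the rad24 deletion libraries and 0.877% to 0.904% in the wild type libraries.

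**Figure D1:**
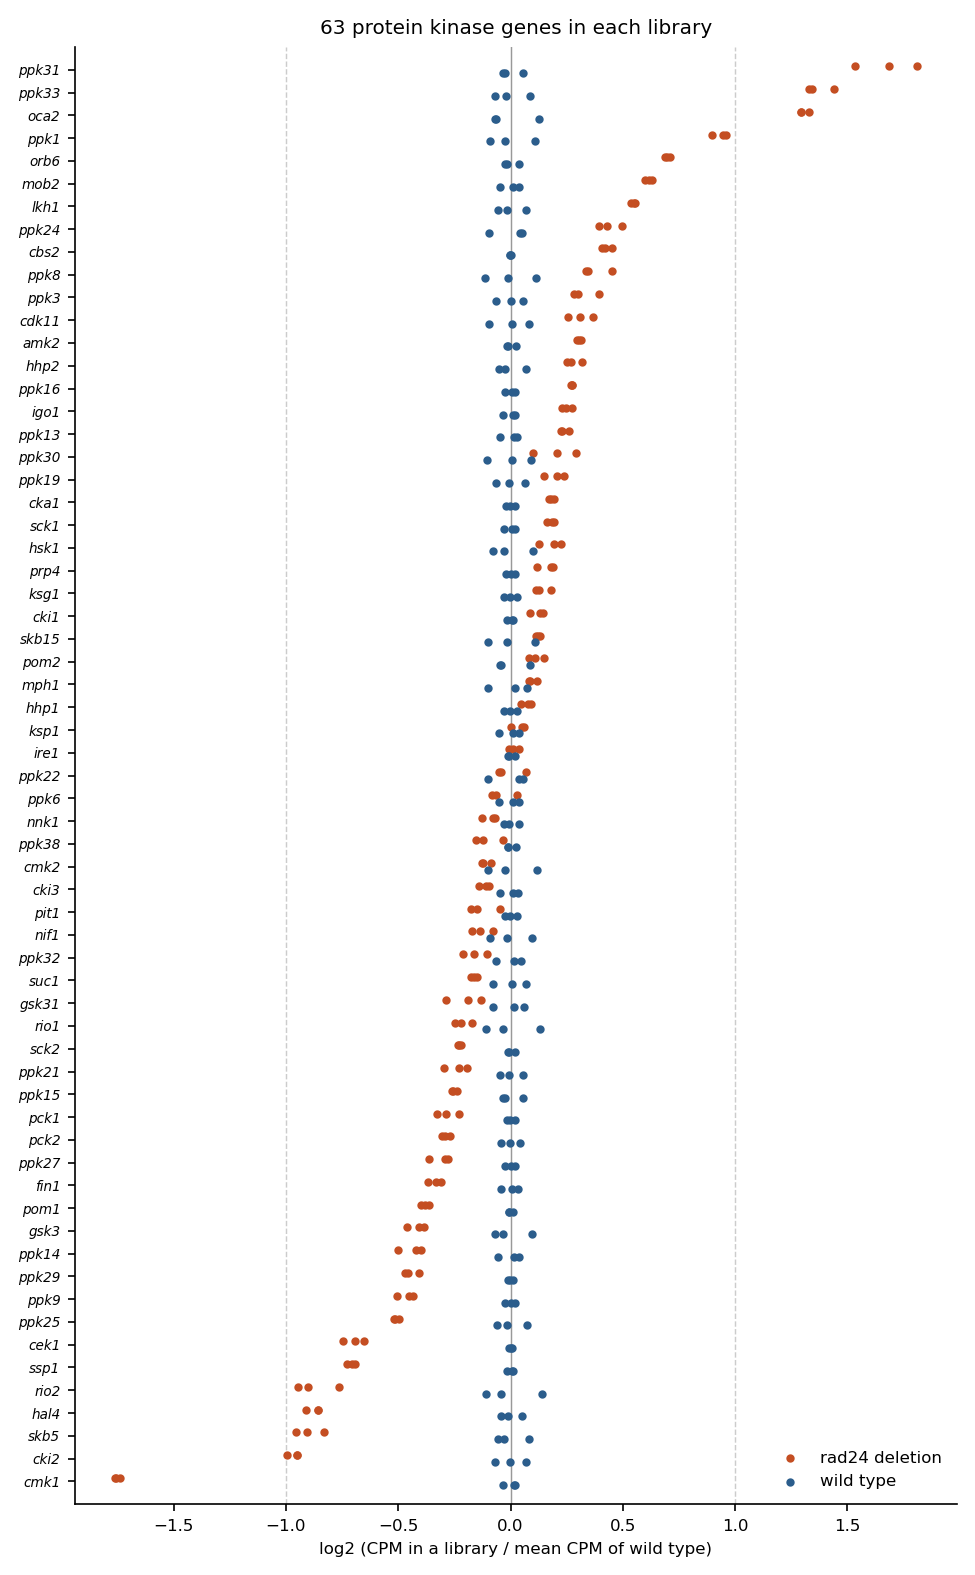
Each row is 1 of the 63 genes and each point 1 library; the horizontal axis is the log2 of the library's CPM over the mean CPM of wild type, with dashed lines at 1 and -1, and the genes are ordered by their log2 fold change. The rad24 deletion points leave the wild type points by more than 1 only for ppk31, ppk33 and oca2 at the top and cmk1 at the bottom.

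The largest fall was that of cmk1 (SPACUNK12.02c), the gene of a calcium/calmodulin-dependent protein kinase. It had 49.6, 49.5 and 50.2 CPM in the rad24 deletion libraries, against 164, 170 and 170 CPM in the wild type libraries. All 3 rad24 deletion libraries were therefore far below all 3 wild type libraries, and the spread within each genotype was small. The level was 3.37-fold lower in the rad24 deletion (49.8 ± 0.388 CPM, against 168 ± 3.47 CPM in wild type; SD, n = 3 each; log2 fold change -1.75, with an SE of 0.03, edgeR adjusted p = 2.45e-14). The gene of the MAPK-activated kinase Cmk2, named for its likeness to Cmk1, was not called. It averaged 72.5 ± 1.06 CPM in the rad24 deletion and 78.4 ± 6.09 CPM in wild type (log2 fold change -0.11, edgeR adjusted p = 0.0634), and its log2 fold change was 0.06 with scaling by library size only.

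Next in size among the falls was the casein kinase 1 gene cki2 (SPBP35G2.05c), with 130, 135 and 135 CPM in the rad24 deletion libraries, against 248, 272 and 260 CPM in the wild type libraries. It was 1.95-fold lower in the rad24 deletion (log2 fold change -0.96, with an SE of 0.04, edgeR adjusted p = 3.73e-11), with no overlap between the groups. The gene skb5 (SPCC24B10.13), which encodes a small activator of the PAK kinase Shk1, had 38.9, 35.7 and 36.8 CPM in the rad24 deletion libraries, against 66.4, 73.2 and 67.7 CPM in the wild type libraries. It was lower by 0.89 on the log2 scale (SE 0.05, edgeR adjusted p = 2.40e-09), again with separate groups. The kinase gene hal4 (SPAC29A4.16), whose product takes part in cation homeostasis, had 445, 445 and 428 CPM in the rad24 deletion libraries, against 783, 835 and 799.7 CPM in the wild type libraries (log2 fold change -0.87, with an SE of 0.04, edgeR adjusted p = 2.24e-10). It had the highest CPM of the 63 genes in both genotypes, and it overlaps a counted gene on the opposite strand.

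Further falls concern genes of known pathways. The gene ssp1 (SPCC297.03) encodes a kinase of the CaMKK type that acts upstream of AMP-activated protein kinase, and it had 208, 203 and 206 CPM in the rad24 deletion libraries, against 333, 338 and 337 CPM in the wild type libraries (log2 fold change -0.71, with an SE of 0.03, edgeR adjusted p = 1.70e-10). The groups were narrow and separate, and ssp1 too overlaps counted genes on the opposite strand. For cek1 (SPCC1450.11c), a relative of the Greatwall kinases that act on endosulfine, the rad24 deletion libraries had 160.5, 150.5 and 157 CPM and the wild type libraries 254, 251 and 253 CPM (log2 fold change -0.70, with an SE of 0.03, edgeR adjusted p = 2.99e-10). The gene rio2 (SPBC1703.05), for a kinase of the RIO family that takes part in maturation of the small ribosomal subunit, had 51.2, 52.9 and 58.3 CPM in the rad24 deletion libraries, against 96.1, 109 and 91.6 CPM in the wild type libraries (log2 fold change -0.86, with an SE of 0.06, edgeR adjusted p = 2.20e-08). Its family member rio1 was also lower, by a smaller amount, at 68.7 ± 1.76 CPM in the rad24 deletion and 79.5 ± 6.85 CPM in wild type (log2 fold change -0.21, edgeR adjusted p = 0.00289), but its call was lost with upper quartile factors and with library size only.

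The largest rise was that of ppk31 (SPBC725.06c), the gene of another kinase related to Greatwall and the lowest of the 63 by CPM in both genotypes. It had 14.3, 12.9 and 15.6 CPM in the rad24 deletion libraries, against 4.64, 4.39 and 4.37 CPM in the wild type libraries. These levels come from 264 to 336 counts per rad24 deletion library and 47 to 67 counts per wild type library, and the groups were separate. The rise was 3.20-fold (log2 fold change 1.68, with an SE of 0.12, edgeR adjusted p = 1.67e-08), with the widest SE of the 63 genes. The predicted kinase gene ppk33 (SPCC162.10) had 87.8, 94.7 and 88.4 CPM in the rad24 deletion libraries, against 33.2, 34.4 and 37.1 CPM in the wild type libraries (2.59-fold higher, log2 fold change 1.37, with an SE of 0.05, edgeR adjusted p = 2.83e-11). The kinase gene oca2 (SPCC1020.10) had 124, 124 and 127 CPM in the rad24 deletion libraries, against 48.2, 48.3 and 55.1 CPM in the wild type libraries (2.47-fold higher, log2 fold change 1.30, with an SE of 0.05, edgeR adjusted p = 1.52e-11). In both genes every rad24 deletion library was above every wild type library by more than the spread within a genotype. The genes ppk31, ppk33 and oca2 each overlap another counted gene in the annotation, while cmk1 overlaps none. The gene ppk1 (SPAC110.01) stayed below the 2-fold bound, with 158, 159 and 153 CPM in the rad24 deletion libraries, against 88.4, 77.0 and 80.8 CPM in the wild type libraries (1.91-fold higher, log2 fold change 0.93, with an SE of 0.04, edgeR adjusted p = 2.30e-10).

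**Figure D2:**
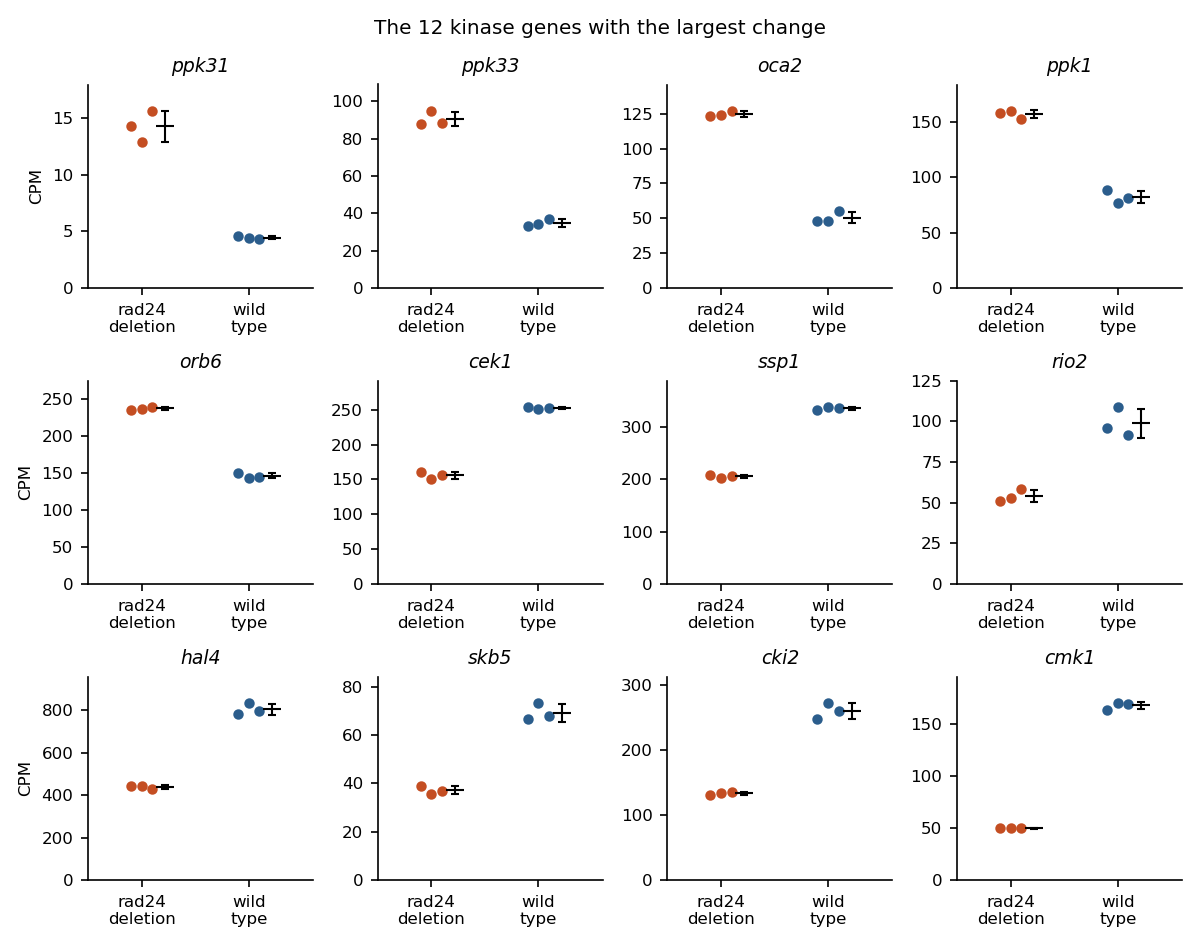
CPM in each library for the 12 genes with the largest absolute log2 fold change, 1 panel each with a linear axis from 0; points are libraries, and the black mark beside them is the mean ± SD (n = 3). In each panel the 3 rad24 deletion points lie on one side of the 3 wild type points, as for cmk1 at 49.5 to 50.2 CPM in the rad24 deletion and 164 to 170 CPM in wild type.

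Orb6, an NDR family kinase that keeps growth at the cell ends, works with the activator Mob2, and the genes of both rose. The gene orb6 (SPAC821.12) had 236, 237 and 239 CPM in the rad24 deletion libraries, against 150.4, 144 and 145 CPM in the wild type libraries (log2 fold change 0.70, with an SE of 0.03, edgeR adjusted p = 1.90e-10). The gene mob2 (SPCC970.04c) had 151, 154 and 153 CPM in the rad24 deletion libraries, against 96.2, 100.2 and 102 CPM in the wild type libraries (log2 fold change 0.62, with an SE of 0.03, edgeR adjusted p = 9.73e-10). The rises were of similar size, 1.62-fold and 1.53-fold, and neither gene had overlapping groups. Of tested protein coding genes 41.9% were called higher, and in 82.9% the groups did not overlap. The genes orb6 and mob2 were set together after their values were seen, and no test was made of the pair. The gene mob2 overlaps the counted gene cbr1 on the opposite strand. In the list of polarity kinases orb6 is the only one of the 63, and 6 other genes are listed beside it. Of these 6, shk2 and sid1 were higher, shk1, ppk11 and kin1 were lower, and nak1 was not called (edgeR adjusted p = 0.22). Calls made up 83.3% of the 6, beside 81.3% of tested protein coding genes.

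PAK kinases, which respond to the GTPase Cdc42, gave a mixed picture. The gene shk2 had a low level in wild type and rose, at 45.5, 50.8 and 53.5 CPM in the rad24 deletion libraries, against 6.23, 7.65 and 6.37 CPM in the wild type libraries (log2 fold change 2.90, with an SE of 0.10, edgeR adjusted p = 6.22e-12). Its essential relative shk1 was lower, at 79.1 ± 3.00 CPM in the rad24 deletion and 122 ± 3.61 CPM in wild type (log2 fold change -0.63, edgeR adjusted p = 3.74e-09). The activator gene skb5 was lower, as given above, while the gene of the inhibitor Skb15 was slightly higher, at 90.8 ± 0.574 CPM in the rad24 deletion and 83.5 ± 6.23 CPM in wild type (log2 fold change 0.12, edgeR adjusted p = 0.0308). The call of skb15 was lost with RLE factors, with DESeq2 and in 5 of the 6 fits that left out a library.

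AMP-activated protein kinase responds to low energy and has a catalytic alpha subunit with a beta and a gamma subunit. The genes of the beta subunit Amk2 and the gamma subunit Cbs2 were higher. They had 238 ± 1.47 and 214 ± 3.25 CPM in the rad24 deletion, against 192 ± 2.96 and 159 ± 0.465 CPM in wild type (log2 fold changes 0.31 and 0.43, edgeR adjusted p = 6.80e-07 and 1.93e-08). The gene of the alpha subunit Ssp2, which is not one of the 63, was lower at 247 ± 3.93 CPM in the rad24 deletion and 353 ± 15.6 CPM in wild type (log2 fold change -0.51, edgeR adjusted p = 3.21e-08). The related kinase gene ppk9 was lower too, with 63.6, 66.7 and 65.8 CPM in the rad24 deletion libraries, against 88.7, 91.4 and 90.3 CPM in the wild type libraries (log2 fold change -0.46). These genes were grouped after their values were seen, and no test was made of the group.

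In the wider list of energy and nutrient kinases, 6 of the 11 genes belonging to the 63 rose, 4 fell and 1, ksp1, was not called, with a median log2 fold change of 0.14. Calls made up 90.9% of the 11, beside 81.3% of tested protein coding genes. The rises were in ppk31, oca2, cbs2, amk2, sck1 and ksg1, and the falls in ssp1, cek1, ppk9 and sck2. Sck1 and Sck2 are AGC kinases, Sck2 being of the S6 kinase type, and Ksg1 is the fission yeast PDK1 kinase. The gene ksg1 had a log2 fold change of 0.14 (edgeR adjusted p = 0.00284). Of the 3 listed genes outside the 63, psk1, for a ribosomal protein S6 kinase, rose to 189 ± 3.39 CPM in the rad24 deletion, against 101 ± 4.14 CPM in wild type, ssp2 fell, and the Greatwall kinase gene ppk18 was not called (log2 fold change -0.06, edgeR adjusted p = 0.0731). Igo1, an endosulfine that inhibits a protein phosphatase once Greatwall has phosphorylated it, is a substrate in this branch. The gene igo1 had 229, 236 and 231 CPM in the rad24 deletion libraries, against 191, 198 and 197 CPM in the wild type libraries (log2 fold change 0.25, edgeR adjusted p = 7.26e-06).

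Protein kinase C acts above the cell wall integrity cascade, in which Mkh1, Pek1 and Pmk1 follow each other. Both protein kinase C genes were lower, by nearly the same amount. The gene pck1 had 149, 156 and 145 CPM in the rad24 deletion libraries, against 180.4, 185 and 182 CPM in the wild type libraries (log2 fold change -0.28, with an SE of 0.03, edgeR adjusted p = 3.52e-06). The gene pck2 had 146, 144 and 143 CPM in the rad24 deletion libraries, against 182, 171 and 176 CPM in the wild type libraries (log2 fold change -0.29, with an SE of 0.03, edgeR adjusted p = 1.68e-06). The 3 cascade genes, none of them one of the 63, were all higher, with log2 fold changes of 0.52 for mkh1, 0.44 for pek1 and 0.50 for pmk1 (edgeR adjusted p = 1.77e-08, 3.42e-08 and 1.25e-08). Beside them, 41.9% of tested protein coding genes were called higher and 39.5% lower. These kinase genes were grouped after their values were seen, and no test was made of the group. The gene pck2 overlaps cct1 on the opposite strand, and pmk1 overlaps ppk19 on the same strand.

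**Figure D3:**
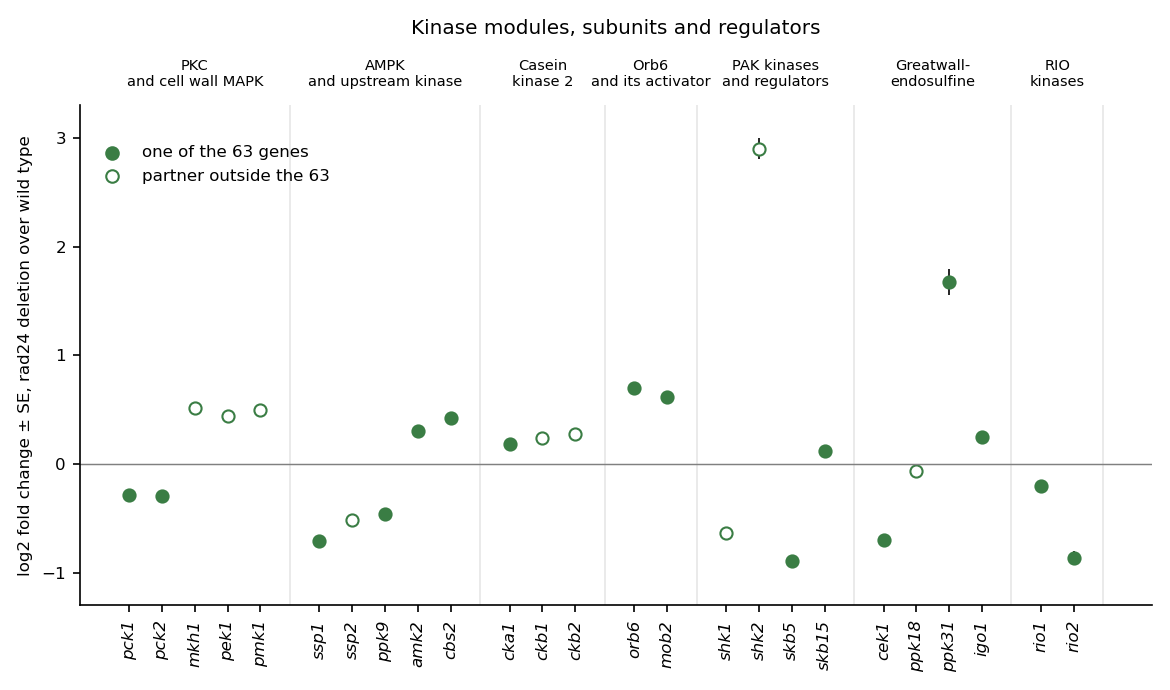
Log2 fold change (rad24 deletion over wild type) with its SE from the edgeR fit for the genes of 7 modules, filled where the gene is one of the 63 and open where it is a partner outside them. The modules were chosen by hand after values were seen. The protein kinase C genes lie below 0 and their cascade genes above it, the beta and gamma subunit genes of AMP-activated protein kinase lie above the alpha subunit gene, and shk2 is the highest point at 2.90.

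Casein kinases are abundant kinases with many substrates. Casein kinase 2 has a catalytic subunit, Cka1, and the regulatory subunits Ckb1 and Ckb2, and the genes of all of them were slightly higher. The gene cka1 had 425, 432 and 428 CPM in the rad24 deletion libraries, against 377, 383 and 373 CPM in the wild type libraries (log2 fold change 0.18, edgeR adjusted p = 0.000264), and the log2 fold changes of ckb1 and ckb2 were 0.24 and 0.28. Of tested protein coding genes 41.9% were called higher, and the casein kinase 2 genes were grouped after their values were seen. Among the casein kinase 1 genes, hhp2 was higher at 136 ± 3.38 CPM in the rad24 deletion and 112 ± 4.91 CPM in wild type (log2 fold change 0.28). Its relative hhp1, at 421 ± 6.57 CPM in the rad24 deletion and 401 ± 8.39 CPM in wild type, was not called (log2 fold change 0.07, edgeR adjusted p = 0.082). The gene cki1 was higher by 0.12 on the log2 scale (edgeR adjusted p = 0.00258). The gene cki3 had a log2 fold change of -0.12 (edgeR adjusted p = 0.01), which was 0.05 with scaling by library size only.

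Kinases of the GSK3 and DYRK families and of RNA processing divided evenly, with 4 of 8 higher and 4 lower. All 8 were thus called, beside 81.3% of tested protein coding genes. Pom1, which marks the cell ends and restrains entry into mitosis, had its gene lower at 161, 166 and 163 CPM in the rad24 deletion libraries, against 215, 212 and 212 CPM in the wild type libraries (log2 fold change -0.38, with an SE of 0.03, edgeR adjusted p = 5.15e-08). The genes gsk3 (log2 fold change -0.42), gsk31 (-0.20) and ppk15 (-0.25) were also lower. The call of gsk31 was lost with upper quartile factors and with library size only, and that of ppk15 with library size only, so the even split depends on the scaling. The gene lkh1, for a LAMMER family kinase, rose to 191, 194 and 193 CPM in the rad24 deletion libraries, against 139, 130.5 and 127 CPM in the wild type libraries (log2 fold change 0.55, with an SE of 0.04, edgeR adjusted p = 7.21e-09). Smaller rises were those of cdk11 (0.32), the splicing kinase gene prp4 (0.16) and the DYRK gene pom2 (0.11), and pom2 was called although its groups overlapped. The gene of the SR protein kinase Dsk1, listed beside them, had a log2 fold change of -0.01 (edgeR adjusted p = 0.906).

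Of the 3 mitosis and chromosome genes among the 63, the NIMA-related gene fin1 was lower at 126 ± 2.48 CPM in the rad24 deletion and 159 ± 4.28 CPM in wild type (log2 fold change -0.33, edgeR adjusted p = 4.57e-07). The gene hsk1, for the kinase that fires replication origins, was higher by 0.18 on the log2 scale (edgeR adjusted p = 0.00549). The spindle checkpoint gene mph1 was not called at a log2 fold change of 0.09 (edgeR adjusted p = 0.0552). Of 5 listed partners outside the 63, tel1 was higher, ark1, pef1 and hrk1 were lower, and bub1 was not called. Ire1, the sensor of unfolded proteins in the endoplasmic reticulum, had nearly equal gene levels, at 98.1, 97.1 and 99.97 CPM in the rad24 deletion libraries and 96.7, 98.9 and 96.9 CPM in the wild type libraries (log2 fold change 0.01, edgeR adjusted p = 0.688). Among the 5 listed kinases of stress and translation outside the 63, the translation control kinase genes hri1 and hri2 went opposite ways, with log2 fold changes of -0.64 and 0.90. The others changed less: gcn2 was higher (0.12), win1 was lower (-0.25) and wis4 was not called (-0.02).

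Of the 18 genes known only by a ppk name and in none of the lists above, 9 rose, 7 fell and 2 were not called, with a median log2 fold change of 0.09. Calls made up 88.9% of the 18, beside 81.3% of tested protein coding genes. Besides ppk33 and ppk1, the rises ran from 0.19 for ppk19 to 0.43 for ppk24, and included ppk3, ppk8, ppk13, ppk16 and ppk30. The largest fall among them was that of ppk25, with 60.6, 59.8 and 59.6 CPM in the rad24 deletion libraries, against 90.1, 82.0 and 84.5 CPM in the wild type libraries (log2 fold change -0.51, with an SE of 0.04, edgeR adjusted p = 8.12e-08). The genes ppk29 (-0.44), ppk14 (-0.44), ppk27 (-0.31), ppk21 (-0.24), ppk32 (-0.16) and ppk38 (-0.10) were also lower, of which ppk32 and ppk38 had a positive value with scaling by library size only. The Ark1/Prk1 family kinases, known for a role in endocytosis, have 3 genes here that differed: ppk29 was lower, ppk30 was higher at a log2 fold change of 0.20, and ppk38 was barely lower. The genes ppk22 and ppk6 were not called, with log2 fold changes of -0.01 and -0.04.

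The 11 remaining genes fall in none of the lists, and 3 of them rose and 7 fell, with a median log2 fold change of -0.13. Calls made up 90.9% of the 11, beside 81.3% of tested protein coding genes. The rises were mob2, igo1 and skb15, and the larger falls skb5, hal4 and rio2. Besides rio1, the Cdk1-binding subunit gene suc1 (log2 fold change -0.17, edgeR adjusted p = 0.002), the meiotic kinase gene pit1 (-0.12) and nnk1 (-0.09) were lower, while nif1, for an inhibitor of the kinase Cdr1, was not called (edgeR adjusted p = 0.0593). The calls of suc1, pit1 and nnk1 were lost with upper quartile factors and with library size only. The genes pit1 and nnk1 had a positive value with scaling by library size only, and nnk1 also with upper quartile factors.

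Related kinase genes were also compared with each other. Within a library the ratio of 2 genes does not depend on the scaling between libraries, so 7 ratios were compared. The log2 ratio of cmk1 to cmk2 counts was -0.57, -0.54 and -0.52 in the rad24 deletion libraries, against 1.09, 1.00 and 1.21 in the wild type libraries. Counts of cmk1 thus exceeded those of cmk2 in each wild type library and were fewer in each rad24 deletion library (difference -1.64). These counts are not corrected for coding length, which is 1008 bases for cmk1 and 1515 bases for cmk2. Per kilobase, cmk1 had 49.4 CPM and cmk2 47.9 CPM in the rad24 deletion, against 166.5 and 51.7 CPM in wild type. The change of order is therefore one of raw counts. Per kilobase the levels in the rad24 deletion lay close together, and the length used is that of the coding region alone. Which of cmk1 and cmk2 was higher per kilobase in the rad24 deletion is thus not settled. The ratio of cki1 to cki2 also crossed 0, with 0.37, 0.34 and 0.28 in the rad24 deletion libraries, against -0.68, -0.84 and -0.74 in the wild type libraries (difference 1.08). For sck1 to sck2 the ratio was 0.98 ± 0.02 in the rad24 deletion and 0.57 ± 0.04 in wild type (SD, n = 3 each). Smaller differences were found for hhp1 to hhp2 (-0.21), gsk3 to gsk31 (-0.22) and cki1 to cki3 (0.23). In these 6 pairs the groups did not overlap, and the two-sided exact permutation test gave p = 0.1, the smallest that 3 against 3 libraries allow (adjusted p = 0.117 over the 7 pairs), so no pair passed 0.05. With separate groups in most single genes, separate ratios are no mark of these pairs, and ratios of other gene pairs were not computed. The ratio of pck1 to pck2 was 0.06 ± 0.05 in the rad24 deletion and 0.05 ± 0.06 in wild type, with overlapping groups (exact permutation test, p = 1.0).

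**Figure D4:**
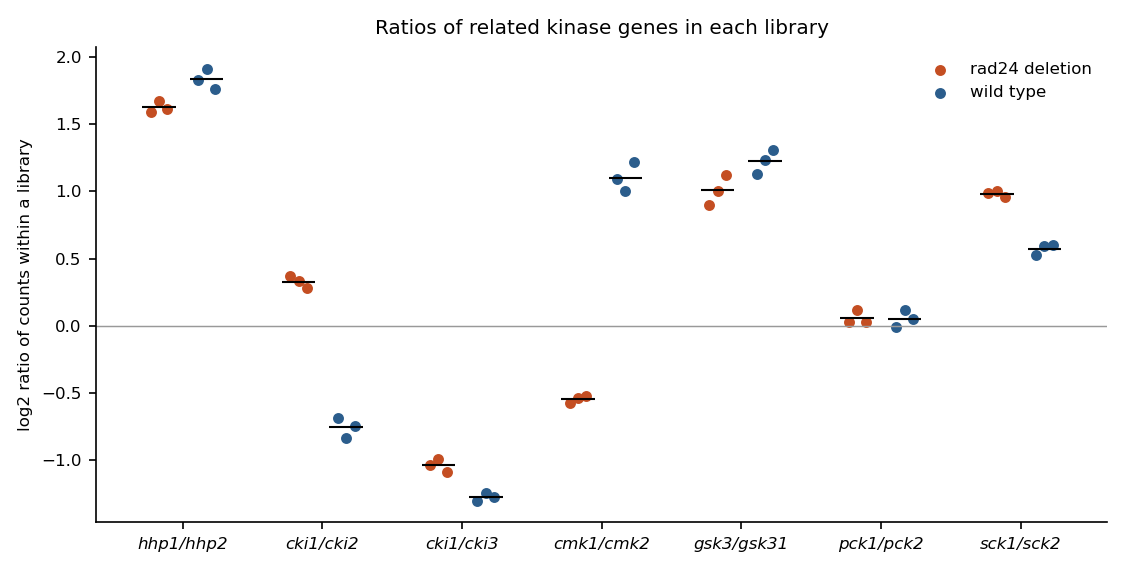
Log2 ratio of the raw counts of 2 related kinase genes within each library, for 7 pairs; points are libraries, and black lines are group means. The rad24 deletion and wild type points lie on opposite sides of 0 for cki1/cki2 and cmk1/cmk2 and overlap for pck1/pck2. The counts are not corrected for coding length, so 0 does not mark equal levels per kilobase.

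Levels were compared between genes as CPM per kilobase of coding length, taken from the ASM294v3 annotation. This length leaves out untranslated regions, so genes with a short coding region, such as igo1 with 420 bases, may be placed too high. By CPM alone hal4 was the highest of the 63 in both genotypes. In the rad24 deletion the highest of the 63 were igo1 (553 CPM per kilobase), cka1 (429), hhp1 (383), amk2 (265) and cki3 (261). In wild type they were igo1 (465 CPM per kilobase), hal4 (422), cka1 (378), hhp1 (365) and cki3 (282). The gene hal4 stood in place 7 in the rad24 deletion at 229.9 CPM per kilobase and in place 2 in wild type. The gene cmk1 had 49.4 CPM per kilobase in the rad24 deletion and 166.5 in wild type. The lowest of the 63 was ppk31 in both genotypes, at 4.62 CPM per kilobase in the rad24 deletion and 1.44 in wild type, followed by ppk19 in the rad24 deletion (16.96) and ppk24 in wild type (13.2).

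**Figure D5:**
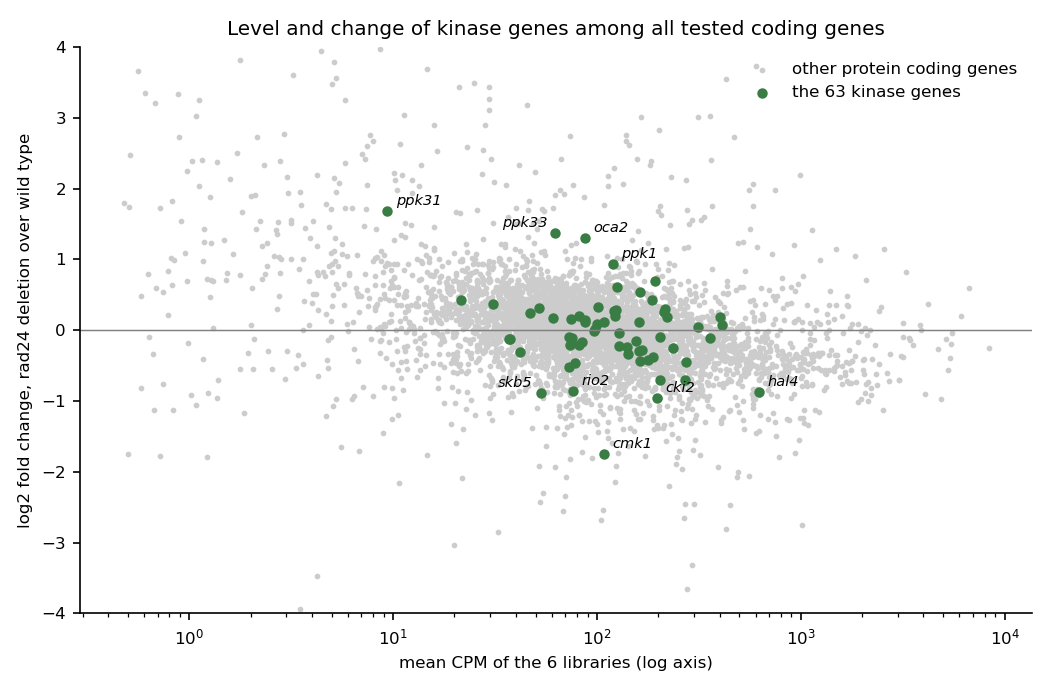
Log2 fold change (rad24 deletion over wild type) against the mean CPM of the 6 libraries on a log axis, for the 63 genes in green and all other tested protein coding genes in grey; 29 coding genes beyond a log2 fold change of 4 in either direction lie outside the plot. Most of the 63 lie within 0.5 of 0 at middle levels, with ppk31 at a low level and hal4 at the highest.

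The 24 genes with "protein kinase" in their description that were left out by name were compared as the nearest other genes. Of these, 11 were higher and 8 lower, with a median log2 fold change of 0.03, against -0.01 for the 63. The calls are 79.2% of the 24 genes, beside 81.3% of tested protein coding genes. Past 2-fold were 12.5% of the 24, beside 9.39% of protein coding genes. At least 2-fold changes were found in mek1, mde3 and spo4, meiotic kinase genes at 6.74, 0.729 and 1.05 CPM in the rad24 deletion and 3.18, 0.226 and 0.0708 CPM in wild type. Protein phosphatases remove the phosphate that kinases add. Of 27 such genes and their subunits 10 were higher and 9 lower, with a median of 0.05 and no change of 2-fold. These calls are 70.4% of the 27, below the share of all protein coding genes. The largest rises there were those of the tyrosine phosphatase genes pyp3 and pyp2 (log2 fold changes 0.83 and 0.80), and the largest fall that of sds21 (-0.59).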

How the data were processed

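Per the labels' protocols, the library kit keeps the strand and reads are paired. The submitters' processing notes name the aligner HISAT2 2.1.0, the counter HTSeq 0.10.0, SAMtools, DESeq2 and, as genome build, ASM294v2. How strand was set in HTSeq is not stated there. The deposited table of the 6 libraries holds raw counts for each gene by the authors, and had 6987 rows, of which 1 repeated identifier without counts was dropped. Per the file headers, their DESeq2 table has a log2 fold change, p-values and the score of the test for each gene. Its signal, a mean normalized count by the authors, was not used.

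Genes were filtered with filterByExpr and scaled with TMM factors, leaving 6084 of 6986, and tested with the edgeR 4.0.16 quasi-likelihood test (R 4.3.3, limma 3.58.1) with genotype as the only term. CPM use TMM-scaled library sizes. Fold changes are the rad24 deletion over wild type, SDs are over n = 3 libraries, and each SE is the absolute log2 fold change over the square root of F. These SEs were smaller than those of the authors' deposited table for 61 of the 63 genes. No pair of libraries looked like 1 library deposited again, with chi-square values of 2.45 to 7.76 per degree of freedom within a genotype. Ratios of related genes were compared with an exact permutation test in SciPy 1.17.1.

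The 63 genes and the lists were chosen with earlier results of these data known. The rule for names took members past 2-fold with separate groups, up to 4 called members per list, the genes of the pairs and the 5 highest levels per kilobase. The other genes were added to account for all 63. Of the listed names 4, all of phosphatases, were not matched. Coding lengths and neighbours are from ASM294v3, whose coordinates are not printed. Counts of genes that overlap are uncertain. The test was repeated with other scalings (RLE, upper quartile, library size only), without the filter or with a minimum of 50 counts, with DESeq2 1.42.0 and limma-voom, with a replicate block, on protein coding genes only, on counts thinned to the smallest total, and without each library.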

Additional observations from a re-analysis of the deposited data

How the results depend on the processing

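With library size only, 17 of the 63 genes were called lower in place of 28, and cmk2 and cki3 had log2 fold changes of 0.0581 and 0.0492 in place of -0.11 and -0.12. The share of higher genes among the calls was 49.1% with TMM factors, 60.8% with upper quartile factors and 66.0% with library size only. It was 46.4% with RLE factors and 49.0% with DESeq2. The number that fell at least 2-fold was 1 to 2 when 1 library was left out. It was 2 only without wild type replicate 1, where cki2 passed the bound. The numbers called higher ran from 25 to 28 over these 6 fits, and those called lower from 24 to 28. Calls lost in at least 1 of these fits were those of skb15, pom2, nnk1, ppk38, pit1 and cki3. Same-numbered libraries did not deviate together (correlations of -0.0014, -0.0029 and 0.0503), so the numbers were not taken as pairs. With the replicate number as a block, 28 genes were higher and 26 lower, and 53 of 55 calls remained. DESeq2 kept 51 of the 55 calls and limma-voom all 55. Of the single values of named genes and pairs, 565 stayed the same, 5 lost a call, 5 gained one and 2 changed sign. For a gene, the same meant an unchanged direction and side of the threshold. For a pair it meant a difference that moved by less than the larger SD of its groups. The 3 rises past 2-fold and the fall of cmk1 were past that bound in all 16 alternatives.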

Other observations

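All 46 genes with an adjusted p below 0.05 in the authors' deposited table, 22 of them higher and 24 lower, had the same direction in the edgeR fit. The 9 genes called by edgeR alone were cdk11, hsk1, ksg1, skb15, pom2, nnk1, ppk38, pit1 and ppk15.

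Overlapping genes were looked up in the ASM294v3 annotation, since reads in an overlap may not be counted for either gene. Of the 63 genes 29 overlapped another tested gene, 27 of them one on the opposite strand. The gene cmk1 overlapped none of the counted genes, and its neighbours kha1 upstream and caf4 downstream had log2 fold changes of 0.17 and 0.16. The gene cki2 overlapped none either, and its neighbours nup131 and SPBP35G2.04c had log2 fold changes of 0.19 and 0.16. The gene ppk31 overlapped the non-coding RNA gene SPNCRNA.1421 on the opposite strand, which was lower at 45.8 CPM in the rad24 deletion and 63.1 CPM in wild type. The gene ppk33 overlapped the uridine kinase gene urk1 on the opposite strand, which was lower in the rad24 deletion (log2 fold change -0.59). On the same strand as urk1 it also overlapped the non-coding RNA gene SPNCRNA.1205, which was higher at 1.21 CPM in the rad24 deletion and 0.171 CPM in wild type (log2 fold change 2.92). The gene oca2 overlapped the non-coding RNA gene SPNCRNA.1156 on the same strand, which was higher at 8.35 CPM in the rad24 deletion and 3.83 CPM in wild type, and emc6 on the opposite strand, which had a log2 fold change of 0.00. On the strand opposite hal4, SPAC29A4.17c was higher in the rad24 deletion (log2 fold change 0.74). The antisense RNA gene ssp1-antisense-1 was lower at 0.202 CPM in the rad24 deletion and 1.55 CPM in wild type, while ssp1 was lower too. The part of these overlaps in the values of the kinase genes was not tested.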
